A study of Mus musculus with 38 samples.

Results

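The cytosolic ribosomal protein genes were taken by name. They are all genes whose symbol is Rpl or Rps followed by a number and at most 1 of the letters a, l or x, together with Rplp0, Rplp1, Rplp2 and Rpsa. In the bulk RNA-seq table they were 80 of the 23475 genes used, 49 of the large and 31 of the small ribosomal subunit, and the same 80 genes stand in the SCRB-seq tables. Rpl3l was at no more than 3.63 CPM (counts scaled to a common library total) in any bulk library, and the other 79 were abundant enough to be tested.

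The ribosome consists of a small subunit, which decodes the mRNA, and a large subunit, which joins the amino acids. Each subunit is built from ribosomal RNA and a set of proteins that are needed in nearly equal numbers, so their genes are commonly expressed as a block. Many of their mRNAs begin with an unbroken run of C and T, the oligopyrimidine tract, through which cells adjust their translation together, and a few genes have a paralog that is used mainly in particular tissues, such as Rpl10l in the testis and Rpl3l in muscle.

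Expression was measured in E14 mouse embryonic stem cells (mESCs) leaving the pluripotent state under all-trans retinoic acid (RA). The mESCs (2 bulk libraries) were grown in 2i medium with 1 µM MEK inhibitor, 3 µM GSK3 inhibitor and 1000 U/ml LIF. Whole cultures were sampled after 6, 12, 24, 36, 48, 60, 72, 84 and 96 h in N2B27 medium with 0.25 µM RA (1 bulk library each). Cells of such cultures were also sorted, at 96 h into ectoderm-like (CD24+/PDGFRA-) and XEN-like (PDGFRA+/CD24-) cells, the latter resembling extraembryonic endoderm (2 libraries each), at 48 h into 4 PDGFRA- fractions of increasing CD24 and at 72 h into 3 such fractions and 1 PDGFRA+/CD24- fraction (1 library each). An ectoderm-like culture at passage 5 and a XEN-like culture after 3 weeks, each grown on from sorted cells with 20 ng/ml EGF and 10 ng/ml FGF2, gave 1 library each. Single cells were measured by SCRB-seq at 9 times and by SMART-seq2 at 4 times, with 1 sample per time.

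The bulk libraries held 1063810 to 2459420 unique molecular identifiers (UMIs), which let every RNA molecule be scored a single time, with a median of 1665340 over 25 libraries. All 11 XEN marker genes were higher and all 11 ectoderm marker genes lower in sorted XEN-like than in sorted ectoderm-like cells, and 11 and 12 of 12 pluripotency genes were lower in sorted ectoderm-like and XEN-like cells than in mESCs. The lists hold Pdgfra and Cd24a, the genes of the sort markers. Against mESCs, 8 of the 11 XEN genes were also called higher in ectoderm-like cells, and 3 of the 11 ectoderm genes in XEN-like cells. The second sorted ectoderm-like library held more XEN marker RNA than the first (1779 and 485 CPM summed over the list), and the second sorted XEN-like library less (6665 and 12050 CPM). The part of these differences in the results below was not tested. The labels call the sorted libraries biological replicates, and the methods of the study do so for the mESC libraries too, without saying how the cultures were kept apart. Since all libraries are of mixed cells, fewer cells of a type and less RNA per cell cannot be told apart in bulk.

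Sequence near the annotated start of transcription is shown for a few of these genes. The pairs among them encode closely related proteins, and Rpl10l is set against Rpl10 in the results. Each window is centred on a run of C and T, so not every window holds the start itself. The sequences are 30 bases around the longest run of C and T (in capitals) within 30 bases of the annotated start, read 5′ to 3′ on the strand of the gene from RefSeq on GRCm38.p6. The first 2 belong to genes of the block, and the 3 pairs after them set a gene beside its paralog.
Rps26 (chr10:128626485-128626514, minus strand): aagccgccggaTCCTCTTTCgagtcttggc
Rps10 (chr17:27635227-27635256, minus strand): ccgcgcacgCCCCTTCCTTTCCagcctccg
Rps27 (chr3:90213632-90213661, minus strand): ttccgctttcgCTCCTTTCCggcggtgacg
Rps27l (chr9:66946053-66946082, plus strand): ccccgcctccaCTCCTCTCCactcctcccc
Rpl39 (chrX:37085225-37085254, minus strand): cgagtcatccaTCCCCCCCTaagctccgcc
Rpl39l (chr16:10170191-10170220, plus strand): aacacccactgCCTCTCCCTagctcccagg
Rpl10 (chrX:74270781-74270810, plus strand): cccctggctgtaaCTCTatggttgttacag
Rpl10l (chr12:66284395-66284424, minus strand): aacagaaatttggCCTCCattttgcggctg

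A run of at least 8 C or T on the strand of the gene lay within 30 bases of the start in 34 of the 60 ribosomal protein genes with an entry (56.7%), and in 6965 of 27025 genes of the table (25.8%). The longest run of Rps10 was 13 bases, and that of Rpl10l was 5. Rpl39l and Rps27l each held a run of 9 bases, as did Rpl39 and Rps27. Of these, only the run of Rps27 lay across the annotated start (bases -2 to 6 from it). The runs of Rps27l (-22 to -14), Rpl39l (-26 to -18) and Rpl39 (-21 to -13) lay wholly upstream of the start used. The annotated genes Rps27l and Rpl39l begin at chr9:66944624 and chr16:10170197, before the starts used for them. Their runs thus lie inside the annotated gene. A run near an annotated start is a match of letters and not a measured tract.

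In mESCs the genes were among the most abundant of the cell. Of the 80, 75 had a mean of at least 1000 CPM, with a median of 3816 CPM. The libraries count 3′ ends, so these levels do not depend on the length of the mRNA. Rpl32 was highest at 9687 CPM, followed by Rps19 at 8662, Rps18 at 8132, Rps14 at 7720 and Rps26 at 7501 CPM. The 10 highest genes held 23.7% of the UMIs of all ribosomal protein genes. At the other end were Rpl29 at 916, Rps10 at 722 and the paralogs Rpl39l at 261 and Rpl10l at 197 CPM. Rpl3l, known from heart and skeletal muscle, gave 1 and 2 UMIs in the 2 mESC libraries.

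Some of these genes have copies elsewhere in the genome, which limits how well single genes can be counted. Of the windows of 46 bases in the last 500 bases of the mRNA (at most 455 a gene), over 50% occurred in transcripts of other genes for 25 of the 80 genes, and none did for 21, among them Rps26, Rps19, Rps14 and Rpl39l. For Rpl10l 38 windows were shared with 1 other gene, and for Rps27l 80 windows. The 25 genes include several named below, such as Rpl24 (408 of 455 windows), Rpl3 (381), Rps10 (378), Rpl10 (332) and Rpl14 (293). Levels of the genes with mostly shared ends are uncertain, and sums over the block less so.

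The block as a whole made up 30.8% and 32.5% of all UMIs in the 2 mESC libraries (31.7% ± 1.15, SD, n = 2). In whole cultures under RA it took 29.9% at 6 h, 28.8% at 12 h, 27.8% at 24 h, 29.7% at 36 h and 27.7% at 48 h. Later it took 28.4% at 60 h, 26.7% at 72 h, 26% at 84 h and 24.0% at 96 h. Every RA library thus lay below both mESC libraries, the share at 96 h was 0.758 of that in mESCs, and the order of the times was broken at 36 h and 60 h. Counting error is small against these differences, since the 95% exact binomial interval at 0 h spanned 30.8% to 30.9% in the first mESC library. Such intervals cover counting error only.

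Sorted cells held shares between those of mESCs and of the whole culture at 96 h. Ectoderm-like cells had 27.1% and 30.02% (28.5% ± 2.09, SD, n = 2) and XEN-like cells 24.6% and 28% (26.3% ± 2.36, SD, n = 2). Both pairs lay below the mESC libraries, and they overlapped each other. The 48 h fractions, from low to high CD24, had 27.6%, 27.7%, 27.1% and 30.3%, and the 72 h fractions 26.4%, 28.9% and 28.8%. The PDGFRA+ fraction of 72 h, at 27.8%, stood among the PDGFRA- fractions of that time.

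The cultures grown on from sorted cells differed more. The ectoderm-like culture had 24.7%, 0.865 of the mean of the sorted ectoderm-like cells. The XEN-like culture had 16.2% (95% exact binomial interval 16.2% to 16.3%), the lowest of all 25 bulk libraries and 0.616 of the mean of the sorted XEN-like cells. With 1 library each, these 2 values have no replicate check. Marker genes moved as well. In the XEN-like culture the 11 ectoderm genes summed to 1552 CPM, against 611 and 323 CPM in sorted XEN-like cells, with 4 of the 11 above both sorted libraries, 6 below both and Sox1 at 0, and Cd24a, the gene of the sort marker, was at 421 CPM against 9.14 and 14.6 CPM. Its 11 XEN genes summed to 10098 CPM, between the sorted XEN-like libraries. In the ectoderm-like culture the ectoderm genes summed to 1653 CPM against 3270 and 2803 CPM in sorted cells, and the XEN genes to 2235 CPM against 485 and 1779 CPM. The part of these changes in the shares was not tested.

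**Figure D1:**
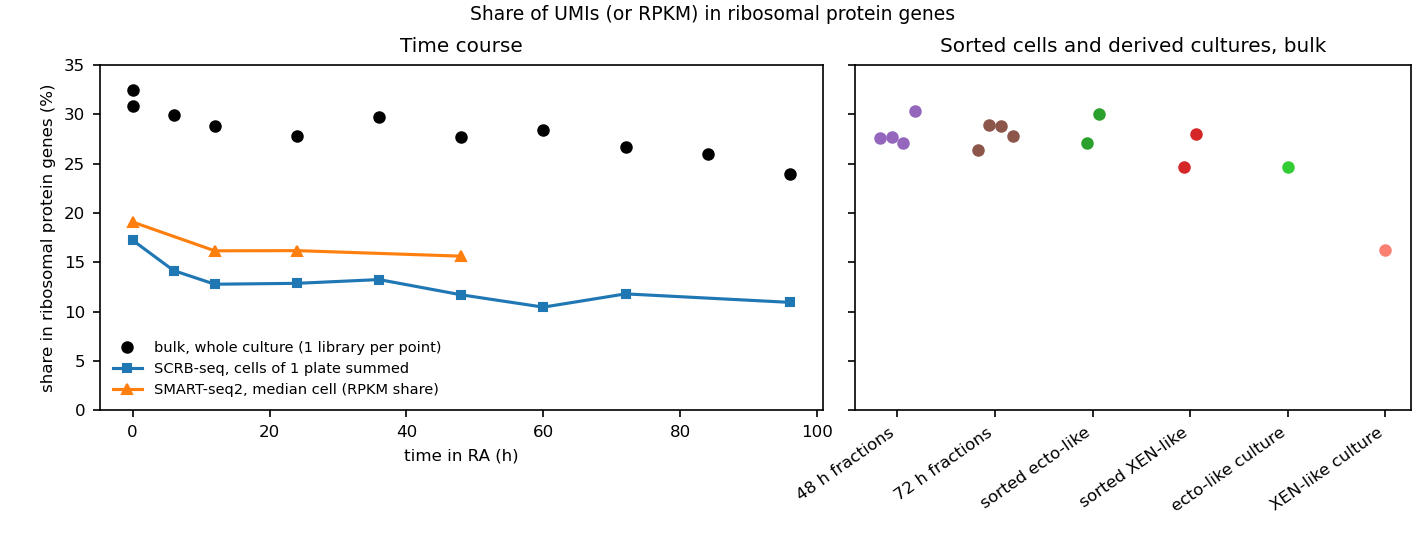
Share of UMIs (bulk, SCRB-seq) or of summed RPKM (SMART-seq2) in ribosomal protein genes, in percent, by time in RA (left) and in sorted fractions and derived cultures (right); each bulk point is 1 library. The mESC libraries are highest at 30.8% and 32.5% and the XEN-like culture lowest at 16.2%.

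The balance of the subunits moved little. Large-subunit genes held 1.31 times the UMIs of small-subunit genes in both mESC libraries, and 1.20 to 1.31 times along the whole-culture time course. The ratio was lowest in the PDGFRA- fractions of 48 h and 72 h, at 1.16 to 1.18. It was 1.22 to 1.3 in sorted 96 h cells, 1.27 in the XEN-like culture and 1.35 in the ectoderm-like culture.

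Single cells gave a second time course. SCRB-seq, which likewise counts UMIs at 3′ ends, was read in the 2448 of 3456 wells with more than 2000 UMIs (137 to 335 per plate, with a median of 4204.5 UMIs). The 384 well names recur on all plates, and no 2 kept wells had identical counts. Summed over the cells of a plate, ribosomal protein genes held 17.2% of UMIs at 0 h, 14.2% at 6 h, 12.8% at 12 h, 12.9% at 24 h and 13.2% at 36 h. They held 11.7% at 48 h, 10.5% at 60 h, 11.8% at 72 h and 10.9% at 96 h. As in bulk, the value at 0 h was the highest and 36 h stood above its neighbours, and the share at 96 h was 0.635 of that at 0 h. Each time is 1 plate, and the ribosomal RNA precursor Rn45s, counted in the total here but not in bulk, took 4.60% to 7.93% of UMIs.

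The median cell held 16.4% at 0 h, 13.4% at 6 h, 12.3% at 12 h and 11.1% at 96 h. The 95th percentile of the cells of 96 h, 14.7%, lay below the median cell of 0 h. Within a time the SD over cells was 2.04 to 2.45 percentage points, against 0.479 to 0.606 from counting alone. The lowest cell of all held 1.33% at 60 h and the highest 20.9% at 0 h. Across the cells of a plate the share and the log10 UMI total had a Pearson correlation of -0.108 to 0.229 (137 to 335 cells), which share the UMI total by construction.

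**Figure D2:**
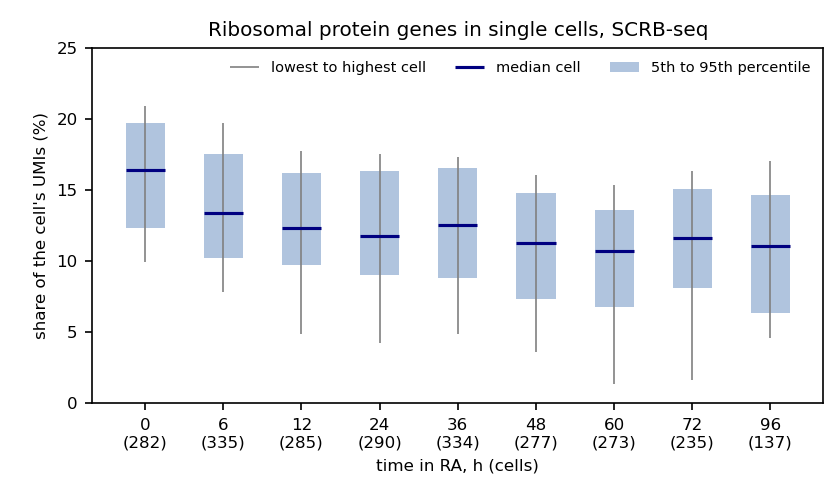
Share of each cell's UMIs in ribosomal protein genes, in percent, for SCRB-seq cells with more than 2000 UMIs by time in RA, with the number of cells in brackets. The median falls from 16.4% at 0 h to 11.1% at 96 h, and the ranges of all times overlap.

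Cells were also set on the XEN or the ectoderm side by which of the 2 marker lists held more of their UMIs. At 60 h the 36 cells of the XEN side held 9.64% (95% exact binomial interval 9.51% to 9.77%) and the 225 cells of the ectoderm side 10.5% (10.5% to 10.6%). At 72 h the shares were 11.6% in 33 cells and 11.8% in 195 cells. At 96 h both were 11%, in 116 and 18 cells. In the bulk whole culture of 96 h the XEN list summed to 12297 CPM and the ectoderm list to 1709 CPM. A side set by the larger sum therefore need not be the cell type of that name. The sides are cells of 1 plate each, so no test was made, and 8 of the 36 and 15 of the 225 cells at 60 h were within 1 UMI of changing side.

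SMART-seq2, which covers whole transcripts, gave a further readout as RPKM (reads scaled to transcript length and depth). The median cell had 19.1% of its summed RPKM in ribosomal protein genes at 0 h (82 cells), 16.2% at 12 h (86 cells), 16.2% at 24 h (89 cells) and 15.6% at 48 h (82 cells), with an SD over cells of 1.67 to 2.41 percentage points. From 0 h to 48 h the median gene was 0.33 lower on the log2 scale, and 74 of the 80 genes with at least 10 per cell total, on the scale of CPM, were lower. SMART-seq2 held 81 genes under the naming rule, the 80 of the bulk table and Rps4l, and Rpl3l fell below that level. RPKM carries no depth that could be used here, and each time is 1 sample.

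Along the bulk time course 74 of 79 ribosomal protein genes fell and none rose (edgeR quasi-likelihood test of a linear trend over 11 libraries, Benjamini-Hochberg adjusted p under 0.05 over 9172 genes). Among all genes tested, 19.7% fell and 19.8% rose. The median ribosomal protein gene changed by -0.74 on the log2 scale over 96 h, against -0.01 for all genes, and all 79 had a negative slope. No ribosomal protein gene rose at an unadjusted p under 0.05, and DESeq2 also called 74 lower and none higher. When counts were scaled by library totals alone, 58 genes fell and the median ribosomal protein gene changed by -0.34. The median of all genes then stood at 0.38, with 3023 genes higher and 983 lower in place of 1815 and 1807, so the changes given here are relative to the other genes of the library.

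Genes of both subunits took part. Of the large subunit 46 of 48 fell, and of the small subunit 28 of 31. Rps10, of the small subunit, was at 705 and 739 CPM in mESCs and at 433 CPM at 96 h (slope -1.04 ± 0.11, log2 over 96 h with SE, adjusted p = 1.5e-05). Rpl30, of the large subunit, stayed at 1298 to 1444 CPM up to 36 h and lay between 862 and 931 CPM from 60 h (slope -1.19 ± 0.13, adjusted p = 1.7e-05). These were the steepest slopes after the paralogs Rpl10l and Rpl39l.

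The stalk proteins, which recruit translation factors to the large subunit, followed the block. Rplp0 had a slope of -0.69 ± 0.12, Rplp1 of -0.87 ± 0.11 and Rplp2 of -0.89 ± 0.10 (log2 over 96 h, edgeR adjusted p = 0.00042, 6.2e-05 and 1.6e-05). Rpsa, a small-subunit protein also known as a laminin receptor, fell by 0.57 ± 0.12 (adjusted p = 0.0024). Rps27a, made as a fusion with ubiquitin, had a slope of -0.79 ± 0.09, and Rpl36a one of -0.83 ± 0.12 (adjusted p = 1.7e-05 and 0.00013). The 5 genes not called were Rpl41, Rps27l, Rps14, Rpl9 and Rps26, with slopes of -0.24, -0.21, -0.47, -0.32 and -0.38.

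Over the SCRB-seq time course, with 9 plate sums, 48 of 79 genes fell and none rose, where 5.57% of the 10519 genes tested fell and 4.72% rose. The median slope was -0.89 over 96 h, and all 79 genes had a negative slope. None rose at an unadjusted p under 0.05, and DESeq2 called 60 lower and none higher. Here the count depended on single plates: without the plate of 72 h 14 genes were called, without 6 h 19, without 96 h 21 and without 60 h 23. With library totals as the scale 7 genes were called, and the median slope was -0.53, against 0.32 for all genes.

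The steepest called slopes in single cells belonged to Rplp1 (-1.27 ± 0.29), Rps10 (-1.25 ± 0.25), Rpl37 (-1.21 ± 0.26), Rpl12 (-1.21 ± 0.25) and Rpl13a (-1.20 ± 0.22), in log2 over 96 h with SE (edgeR adjusted p = 0.014, 0.0086, 0.011, 0.010 and 0.0052). Rps10 went from 743 CPM at 0 h over 500 CPM at 12 h to 377 CPM at 96 h. In all, 45 genes were called lower in both time courses, 29 in bulk only and 3 in SCRB-seq only. The spread about the line was larger in SCRB-seq, so genes called in bulk only are not shown to differ between the courses. Rpl41, the shortest ribosomal protein, and Rps27l were called in neither.

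**Figure D3:**
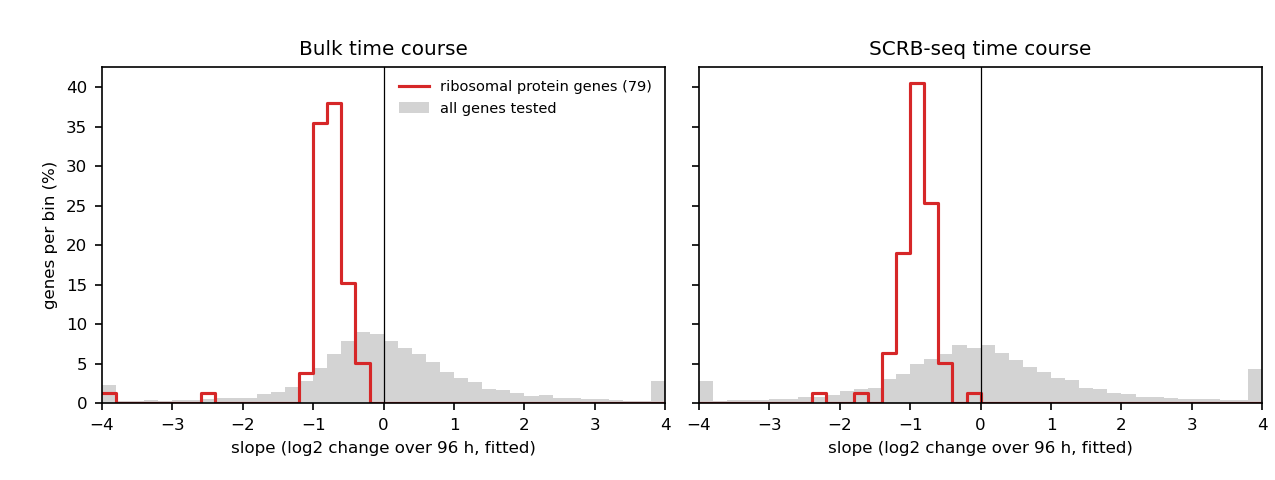
Distribution of fitted slopes (log2 change over 96 h) of the 79 ribosomal protein genes (red line) and of all genes tested (grey), in percent of genes per bin, for the bulk (left) and SCRB-seq (right) time courses; the end bins also hold slopes beyond 4 in size. The ribosomal protein genes stand in a narrow peak left of 0, with medians of -0.74 and -0.89, and Rpl10l and Rpl39l lie left of the peak.

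The comparison of sorted cells with mESCs asked whether the block differs in the cell types of the end of differentiation. In ectoderm-like cells 5 of 79 genes were lower and none higher, where 9.27% of 8945 genes tested were lower and 9.82% higher. In XEN-like cells 11 were lower and none higher, where 10.5% of all genes were lower and 12.3% higher. The counts of called genes were thus near those of all genes, while the medians were -0.47 and -0.48 (log2) against 0.05 and -0.06 for all genes, and 78 and 76 of the 79 genes were below 0. At an unadjusted p under 0.05 none was higher and 31 were lower in each comparison. DESeq2 called 5 and 9 lower, and none higher. The medians depended on the scale: with library totals they were -0.15 and -0.29, against 0.36 and 0.15 for all genes.

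The genes called in ectoderm-like cells were all of the large subunit. Rpl10l was far ahead of the rest at -3.30 ± 0.38 (log2, SE, edgeR adjusted p = 0.00018). Rpl28 was at -0.83 ± 0.26, Rpl37a at -0.78 ± 0.25, Rpl24 at -0.77 ± 0.23 and Rpl14 at -0.76 ± 0.23 (adjusted p = 0.043, 0.047, 0.039 and 0.040). Rpl10l was called in all 10 alternatives tried and each of the other 4 in 5 of them. Leaving out the first mESC library or either ectoderm-like library left Rpl10l alone, and leaving out the second mESC library left 2 genes.

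In XEN-like cells 7 large- and 4 small-subunit genes were lower. Rpl10l led again at -3.09 ± 0.38 (adjusted p = 0.00024), before Rpl28 at -0.98 ± 0.26, Rpl3 at -0.87 ± 0.27, Rpl30 at -0.86 ± 0.23 and Rpl24 at -0.85 ± 0.23 (adjusted p = 0.018, 0.037, 0.018 and 0.022). Rpl28 stood at 2228 and 2637 CPM in mESCs, 1597 and 1790 in ectoderm-like and 1269 and 1550 in XEN-like cells, with no overlap between mESCs and either sorted type. Rpl10l, Rpl24 and Rpl28 were called in both sorted types, which share the 2 mESC libraries. Without the first XEN-like or the second mESC library Rpl10l alone was called, in place of 11 genes, without the first mESC or the second ectoderm-like library 5 were called, and without the first ectoderm-like library 6.

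Between the sorted types no ribosomal protein gene was called in either direction (edgeR, 8945 genes tested, of which 5.71% were lower and 6.98% higher in XEN-like cells). None had an unadjusted p under 0.05, and DESeq2 called none. The median difference was -0.02 and the differences ranged from -0.31 to 0.42 (log2). The SE of a difference was 0.22 to 0.39 for these genes, so that differences of this size were not detectable with 2 libraries a side.

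Most genes rose and fell with the sum of the block. Over the 25 bulk libraries the level of a gene and the sum of the other ribosomal protein genes had a median Pearson correlation of 0.82 (79 genes, log2 CPM), and 46 genes were above 0.8. Since the genes share libraries and totals, these values are a description. The XEN-like culture, at a share of 16.2%, stands apart from the other libraries at 24.0% to 32.5%. Its weight in the correlations was not tested. The 6 genes below 0.5 included Rps26 (0.154), Rpl39l (0.157), Rps14 (0.227), Rpl41 (0.349) and Rpl29 (0.447).

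To find genes that left the pattern, the log2 ratio of CPM of each gene was set against the median ratio of the block, and a departure was a difference of at least 1, that is a doubling or halving. No gene departed between the 2 ectoderm-like libraries, while Rpl10l did so between the 2 XEN-like libraries (-1.25) and Rpl39l stood at the limit between the 2 mESC libraries (-0.996). Among the genes that departed with at least 50 UMIs in the larger group were Rpl10l, Rpl39l and Rps27l, each a paralog of another ribosomal protein gene.

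**Figure D4:**
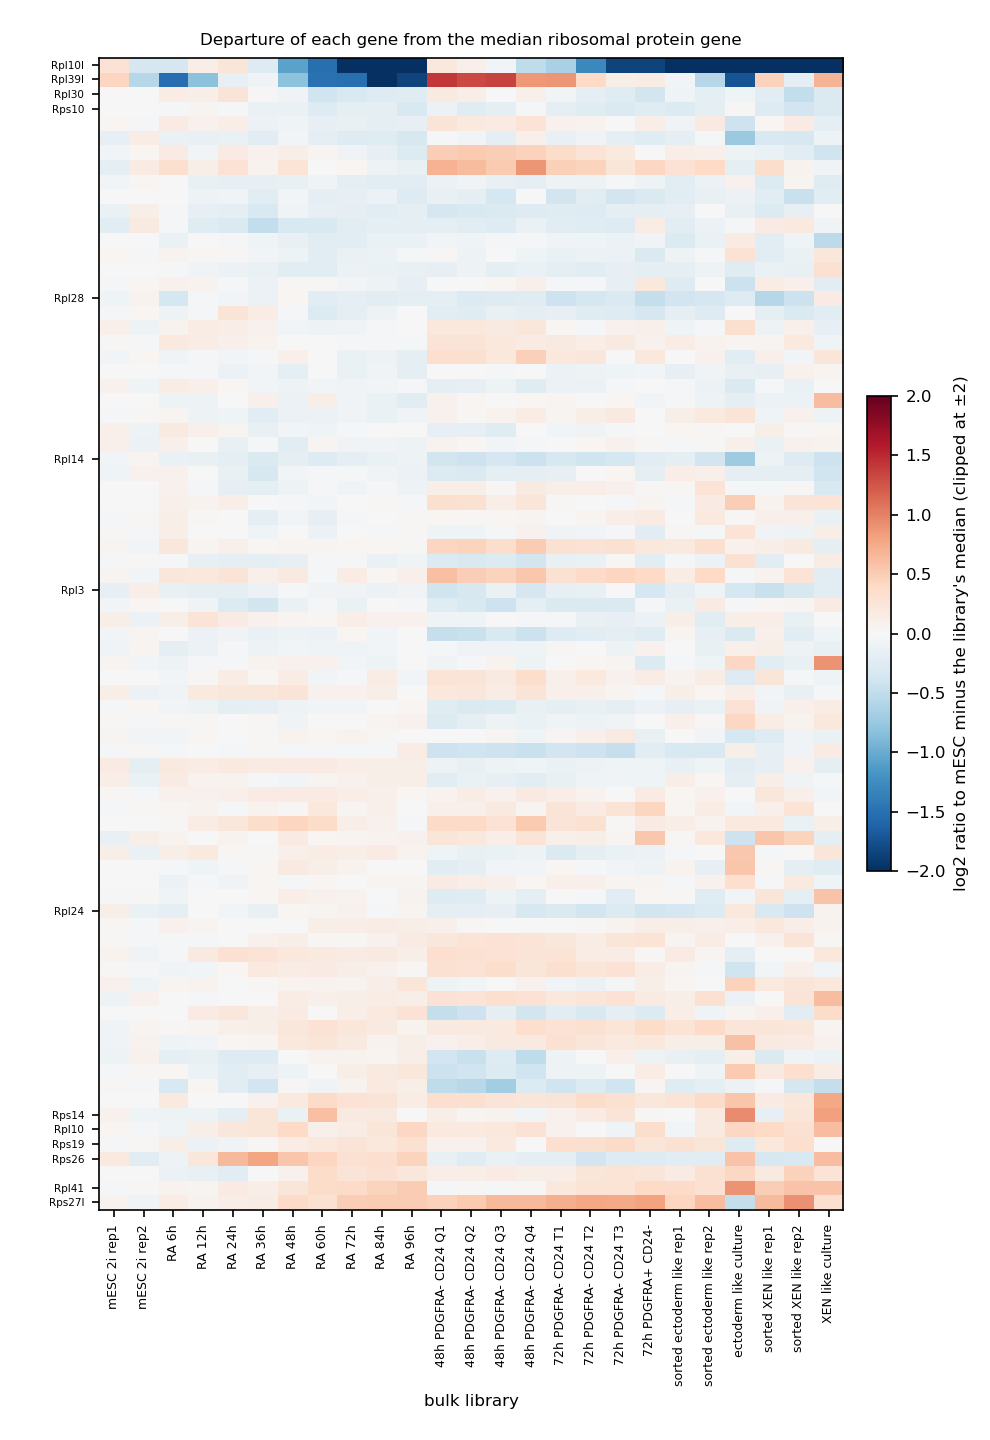
Log2 ratio of each ribosomal protein gene to the mESC libraries minus the median over these genes in the same library (colour, clipped at 2 in size), for 79 genes (rows, ordered by slope over time, with some labelled) and 25 bulk libraries (columns). Blue is below and red above the common course; Rpl10l turns blue in whole cultures from 48 h on, while the 48 h sorted fractions of low CD24 stay near the common course, and Rpl39l is blue in late whole cultures and red in the 48 h sorted fractions.

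Rpl10l, an autosomal copy of the X-linked Rpl10 at chr12:66283379-66284401 (GRCm38.p6), had the steepest slope of all. It gave 233 and 160 CPM in mESCs, 145 at 6 h, 196 at 12 h, 203 at 24 h and 152 at 36 h. From there it was at 79.3 CPM at 48 h, 58.8 at 60 h, 29.4 at 72 h, 23.9 at 84 h and 22 at 96 h. Up to 36 h it thus lay between 145 and 203 CPM, and every later value lay below both mESC libraries. The slope was -3.82 ± 0.39 (log2 over 96 h, edgeR adjusted p = 9.0e-06), called in all 16 alternatives. Relative to the block the departure was -1.07 at 48 h and -2.71 at 96 h.

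Sorted fractions held more Rpl10l than whole cultures of the same time. From low to high CD24, Rpl10l was at 197, 184, 160 and 129 CPM at 48 h and at 102, 71.5 and 47.6 CPM at 72 h, so that the lowest-CD24 fractions of 48 h were still at mESC levels and all exceeded the whole cultures (79.3 and 29.4 CPM). The summed pluripotency genes in these fractions were at 6664, 6600, 5913 and 4292 CPM at 48 h and at 4643, 1983 and 1314 CPM at 72 h, in the same order as Rpl10l. The PDGFRA+ cells of 72 h had 46.3 CPM of Rpl10l, also above the whole culture, beside 7169 CPM of pluripotency genes, so that order did not extend to them. Whether the level follows the share of undifferentiated cells was not tested.

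At the end of differentiation both sorted types were low, with 31.1 and 18.1 CPM in ectoderm-like and 36.1 and 16.4 CPM in XEN-like cells, and no overlap with mESCs. The ectoderm-like culture gave 4 UMIs, or 2.14 CPM (95% exact interval 0.583 to 5.48), and the XEN-like culture 13 UMIs, or 8.97 CPM. In single cells the course had its highest values at 24 h and 36 h, with 106 CPM at 0 h, 119 at 6 h, 159 at 12 h, 221 at 24 h, 214 at 36 h, 127 at 48 h, 67.4 at 60 h, 48.1 at 72 h and 39.9 at 96 h. The linear slope there, -2.37 ± 0.74, did not pass the threshold (adjusted p = 0.061). SMART-seq2, with RPKM brought to the scale of CPM, gave means over cells of 434, 332, 347 and 193 at 0, 12, 24 and 48 h, which was the largest departure downward in those data (-0.83).

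The X-linked parent Rpl10, as counted, did not share this course. It stood at 2746 and 2774 CPM in mESCs and at 2710 CPM at 96 h, between 2425 and 3103 CPM on the way. Both sorted types were near these levels, at 2280 and 2930 CPM in ectoderm-like and 2821 and 2928 CPM in XEN-like cells. Its departure from the block at 96 h was 0.41, upward, where that of Rpl10l was -2.71. Of the 455 end windows of Rpl10, 332 occur in transcripts of other genes, so the course of Rpl10 itself is uncertain.

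Rpl39l, a paralog of the X-linked Rpl39 at chr16:10170197-10174911 (GRCm38.p6), had a broken course. It was at 341 and 182 CPM in mESCs, 84.6 at 6 h, 134 at 12 h, 203 at 24 h, 230 at 36 h, 125 at 48 h, 79.3 at 60 h, 75.2 at 72 h, 51.9 at 84 h and 52.8 at 96 h. In bulk it was thus low at 6 h, near mESC levels at 24 h and 36 h and low again from 60 h. The fall at 6 h was not seen in the SCRB-seq plate sums, which gave 235 CPM at 0 h and 259 CPM at 6 h. The bulk slope over 96 h was -2.49 ± 0.48 (edgeR adjusted p = 0.0012), and the bulk departures were -1.53 at 6 h and -1.86 at 96 h.

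Rpl39l, too, stood higher in sorted cells than in whole cultures of the same time. The 48 h fractions, from low to high CD24, had 603, 568, 567 and 449 CPM where the whole culture had 125 CPM. The 72 h fractions had 395, 309 and 252 CPM and the PDGFRA+ cells 248 CPM, where the whole culture had 75.2 CPM. Each of these 8 fractions thus exceeded the whole culture of its time, and whether the libraries of sorted and unsorted cells compare at this level was not tested. Sorted ectoderm-like cells had 215 and 163 CPM and XEN-like cells 279 and 194 CPM, against 52.8 CPM in the whole culture at 96 h.

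Neither sorted type differed from mESCs in Rpl39l beyond the threshold, at -0.77 ± 0.31 and -0.35 ± 0.30 (log2, edgeR adjusted p = 0.10 and 0.45). The ectoderm-like culture had 56.2 CPM, a departure of -1.48 from its sorted cells, and the XEN-like culture 199 CPM. In single cells Rpl39l was highest at 36 h, at 452 CPM, and went from 235 CPM at 0 h to 61.9 CPM at 96 h, a departure of -1.21. The slope there was not called (-1.78 ± 0.68, adjusted p = 0.12). SMART-seq2 means on that scale were 218, 241, 286 and 219 at 0, 12, 24 and 48 h.

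Rps27l, a paralog of Rps27 known as a target of p53, kept its level while the block decreased. It was at 1942 and 1864 CPM in mESCs and between 1812 and 2205 CPM in all whole cultures. Sorted fractions had more, with 2262, 2372, 2532 and 2820 CPM at 48 h in the order of CD24, 2586 to 2919 CPM at 72 h, 2200 and 2716 CPM in ectoderm-like and 2287 and 3075 CPM in XEN-like cells. No test called a change, with slopes of -0.21 ± 0.10 in bulk and -0.02 ± 0.23 in single cells (adjusted p = 0.096 and 0.96). The sign of the single-cell slope turned under 5 of the alternatives.

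The long cultures were different again for Rps27l. The ectoderm-like culture had 986 CPM, a departure of -1.02 from its sorted cells, and the XEN-like culture 1133 CPM. These rest on 1 library per culture.

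**Figure D5:**
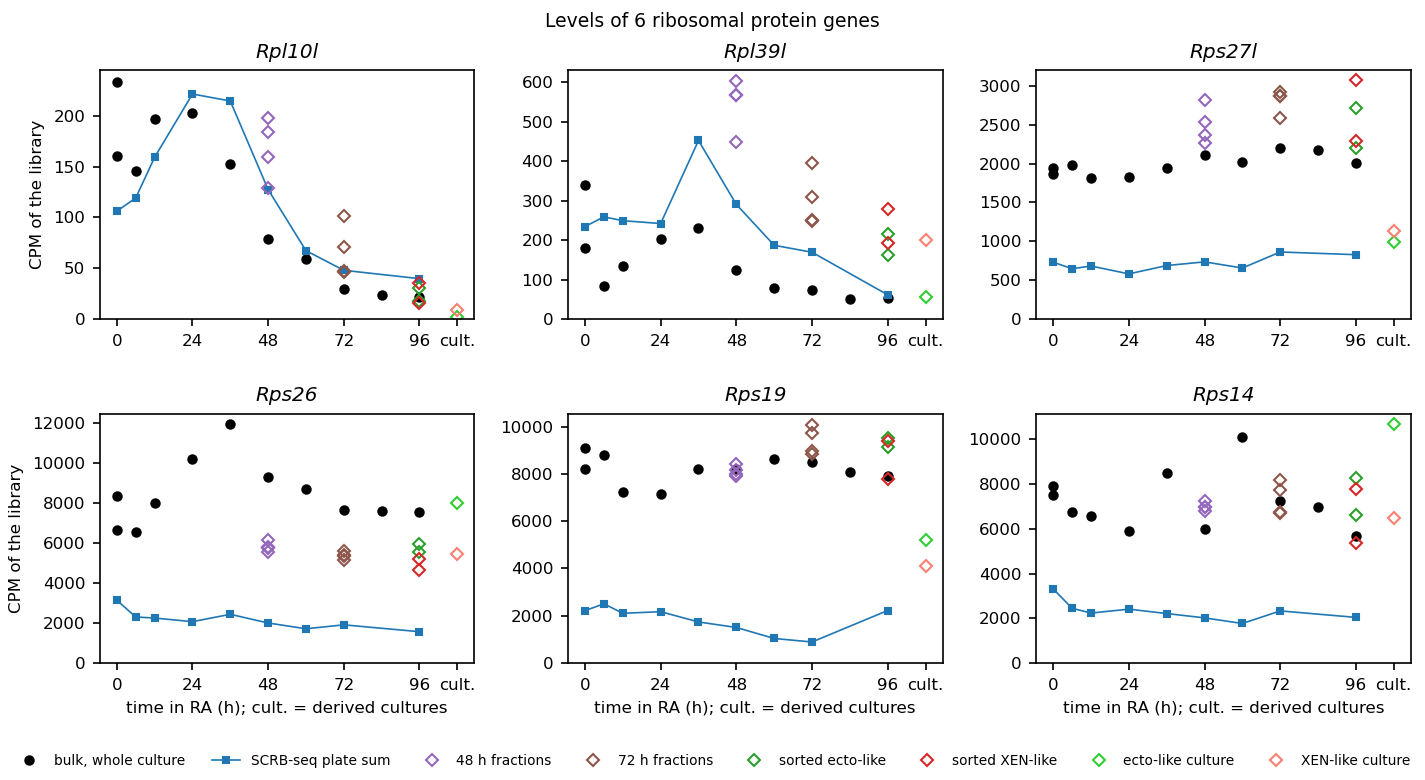
Level of 6 ribosomal protein genes (CPM of the library, linear axis) by time in RA, for whole cultures (black), SCRB-seq plate sums (blue line), sorted fractions and, at the right end, derived cultures (open symbols); each point is 1 library. Rpl10l is at 102 CPM or below in every library from 72 h on, Rpl39l is higher in sorted fractions than in whole cultures of the same time, and Rps26 is lower.

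Rps26, Rps19 and Rps14, 3 abundant small-subunit genes, each had a course of its own. Rps26, whose mutation in people causes an anaemia, was at 8361 and 6641 CPM in mESCs, 6562 at 6 h, 8024 at 12 h, 10218 at 24 h and 11958 at 36 h. It was then at 9326 CPM at 48 h, 8720 at 60 h, 7640 at 72 h, 7596 at 84 h and 7551 at 96 h. The values from 24 h to 60 h lay above both mESC libraries, and no linear slope was called (-0.38 ± 0.23, adjusted p = 0.20).

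Sorted libraries had less Rps26 than every whole culture. The fractions of 48 h had 5541 to 6156 CPM, those of 72 h 5158 to 5593 CPM, ectoderm-like cells 5561 and 5971 CPM and XEN-like cells 4659 and 5192 CPM. XEN-like cells were lower than mESCs by the test (-0.80 ± 0.24, adjusted p = 0.034), and ectoderm-like cells were at -0.68 ± 0.24 (adjusted p = 0.071). The cultures had 8028 and 5485 CPM. In single cells Rps26 fell from 3147 CPM at 0 h to 1569 CPM at 96 h (slope -1.11 ± 0.23, adjusted p = 0.010), with no rise at 36 h beyond 2439 CPM.

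Rps19, also known from inherited anaemia, was at 8221 and 9103 CPM in mESCs and between 7155 and 8804 CPM in whole cultures. Its slope was called (-0.42 ± 0.12, adjusted p = 0.011) and was smaller than the median of the block. Fractions had 7901 to 10074 CPM, ectoderm-like cells 9118 and 9532 CPM, and XEN-like cells 7797 and 9388 CPM. The 2 cultures had 5199 and 4100 CPM, below all other bulk libraries. In single cells Rps19 went from 2215 CPM at 0 h to 1037 CPM at 60 h and 889 CPM at 72 h, and back to 2219 CPM at 96 h.

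Rps14 was at 7912 and 7529 CPM in mESCs, between 5686 and 8490 CPM in whole cultures other than 60 h, and at 10097 CPM at 60 h. The ectoderm-like culture had 10690 CPM, the highest of all, and the XEN-like culture 6503 CPM. Ectoderm-like cells had 6627 and 8256 CPM and XEN-like cells 5384 and 7790 CPM, overlapping mESCs. The bulk slope was not called (-0.47 ± 0.21, adjusted p = 0.096), and in single cells Rps14 fell by 0.83 ± 0.23 over 96 h (adjusted p = 0.035), from 3312 to 2039 CPM.

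Whole cultures and sorted fractions differed for the block as a whole too. At 96 h, the whole culture lay below all 4 sorted libraries for 47 of 80 ribosomal protein genes and above all 4 for 2, where 8.34% of 4436 genes with at least 20 CPM lay below and 711 of them above. At 72 h, 35 lay below and 9 above (11.2% and 29.6% of all genes), and at 48 h 36 below and 22 above (18.9% and 47.2%). The labels name no sequencing batch, and whether the sorting or the library preparation had a part was not tested. Comparisons of sorted cells with mESCs, which were not sorted, hold this difference as well.

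Among the genes that are no members, those most like the share of the block over the 25 bulk libraries were led by Rps3a1, at a Pearson correlation of 0.962 (1900 to 4701 CPM). Rps3a1 is a small-subunit ribosomal protein whose symbol falls outside the naming rule. It was followed by Rps15a-ps6 (0.939), the elongation factor gene Eef1b2 (0.923), Rps15a-ps4 (0.922) and Rpl31-ps12 (0.905), out of 4357 genes with a mean of at least 20 CPM. The 3 genes marked ps are named as pseudogenes of ribosomal protein genes, so that their counts are uncertain.

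Other genes of ribosomes and translation, were taken from lists. Over the bulk time course 6 of 6 further ribosomal genes fell, as did 18 of 36 translation factors and 42 of 73 ribosome biogenesis genes, where 19.7% of all genes fell, and none rose. In SCRB-seq 4 of 6, 4 of 36 and 4 of 73 were called lower, where 5.57% of all genes were, so that the count of biogenesis genes was at the level of all genes. Rpl22l1, a paralog of Rpl22, had slopes of -1.02 and -1.30 (log2 over 96 h), Gnb2l1, a scaffold on the small subunit, of -0.93 and -1.02, and Fau, a ubiquitin-like fusion with a ribosomal protein, of -0.82 and -1.08.

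Eif2s2, a subunit of the initiation factor that brings the first tRNA, fell most among the translation factors, from 4744 and 3461 CPM in mESCs to 1080 CPM at 96 h (slope -2.59 ± 0.31, edgeR adjusted p = 2.8e-05). Eif4ebp1, which blocks the cap-binding initiation factor, had slopes of -1.79 and -2.41 in the 2 time courses, and Eif4a2, a helicase of initiation, of -0.996 and -0.889. Of the biogenesis genes, the histone chaperone Npm3 had slopes of -2.93 and -2.03, and Tcof1, which serves ribosomal RNA transcription, -1.18 and -2.63. Rrn3, an initiation factor of RNA polymerase I, and Dimt1, a methylase of ribosomal RNA, fell by 1.47 and 1.43 in bulk.

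In sorted ectoderm-like cells 0 of 6 further ribosomal genes, 3 of 36 translation factors and 0 of 73 biogenesis genes were lower than in mESCs, against 9.27% of all genes, and none was higher. The 3 factors were Eif4ebp1 (-2.38), Eif2s2 (-2.31) and Eif4a2 (-1.18). In XEN-like cells 1, 4 and 11 were lower, against 10.5% of all genes, among them Rpl22l1 (-1.64), Eif2s2 (-2.02) and the biogenesis genes Utp14a (-2.32), Rrs1 (-1.90) and Noc3l (-1.32), and Mycn, an activator of growth genes, was higher (1.41).

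Rpl22l1 differed between the sorted types. It had 675 and 924 CPM in mESCs, 869 and 1003 CPM in ectoderm-like cells and 289 and 302 CPM in XEN-like cells. The PDGFRA+ fraction of 72 h had 344 CPM where the PDGFRA- fractions had 627 to 927 CPM. XEN-like cells were below both other groups without overlap, and the difference from ectoderm-like cells was -1.56 ± 0.27 (log2, edgeR adjusted p = 0.0044). None of the 79 ribosomal protein genes tested passed the threshold in that comparison.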

How the data were processed

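Bulk and SCRB-seq values are UMI counts: with BWA 0.7.4 the authors mapped reads onto RefSeq transcripts of the mouse, collapsed UMIs per gene and library or well, and deposited the counts unnormalized. The SMART-seq2 cells were deposited as RPKM from TopHat and Cuffnorm, so their depth is unknown. For bulk libraries, 2 genes with text in place of a count and 4 entries with repeated names were dropped.

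Members and gene lists were chosen with earlier results of these data known. Shares and CPM used library totals, with exact binomial intervals. Sorted cells and mESCs (6 libraries, 1 fit) and linear trends on time (11 bulk libraries; 9 SCRB-seq plate sums of wells with more than 2000 UMIs) went through edgeR 4.0.16 under R 4.3.3 (TMM factors, filterByExpr, quasi-likelihood, Benjamini-Hochberg over all genes tested, adjusted p under 0.05). The biological coefficient of variation was 0.247 for the sorted fit, 0.256 for the bulk trend and 0.477 for the SCRB-seq trend. Departures used a prior count of 0.5 and at least 50 UMIs in the larger group. SMART-seq2 values were described over cells, with no test. Text values there, all below 1, were written with a decimal comma and were read as numbers.

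Genes named are Rps26, Rps19 and Rps14, in each test the 5 called members with the largest change in each direction, members that departed (some results under this rule are not reported here), paralogs with an added l, Rps27a, Rpl36a, Rplp0, Rplp1, Rplp2 and Rpsa, the 5 non-members most like the share, and of each other list the 3 largest called changes each way. Members given as extremes of level or correlation, members not called in a trend, and the parents Rpl10, Rpl39 and Rps27 were named after their values were seen. Further ribosomal, translation factor, biogenesis and marker genes stand in lists made with these results known.

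Alternatives were DESeq2 1.42.0, no low-count filter, scaling without members, time as rank, leaving out each library, a replicate block and other UMI minimums, and, chosen after seeing the data, scaling by library totals, a fit of the sorted libraries alone and totals without Rn45s. The tests were first tried on simulated counts, with a log2 change of 2 put into 200 genes. The bulk trend recovered 78% of them, the SCRB-seq trend 21.5% and the sorted comparisons 68% to 72.5%. Promoters are RefSeq on GRCm38.p6 (60 of 80 genes matched), and shared windows were searched in GENCODE M21 transcripts. Tables and figures came from Python 3.11.15 (pandas 2.3.3, numpy 2.4.6, matplotlib 3.10.9, scipy 1.17.1).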

Additional observations from a re-analysis of the deposited data

Results flagged for a closer look

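Between the 2 sorted cell types 1 of 6 further ribosomal genes, 1 of 36 translation factors and 3 of 73 ribosome biogenesis genes differed, where 5.71% of all genes were lower and 6.98% higher in XEN-like cells. Each was tested as the difference of XEN-like minus ectoderm-like cells itself (log2, SE, edgeR adjusted p over 8945 genes). Rpl22l1, a paralog of Rpl22, stood at -1.56 ± 0.27 (adjusted p = 0.0044). Myc, an activator of ribosome biogenesis genes, stood at -2.17 ± 0.56 (adjusted p = 0.026). Polr1b, a core subunit of RNA polymerase I, stood at -1.33 ± 0.38 (adjusted p = 0.040), and Nip7, which matures the large subunit, at -1.06 ± 0.25 (adjusted p = 0.018). Eif4ebp1, which blocks the cap-binding initiation factor, was the exception in direction, at 0.93 ± 0.25 (adjusted p = 0.034). Over 12 alternatives Rpl22l1 was called in 11 (adjusted p up to 0.053), Myc in 9 (up to 0.31), Nip7 in 9 (up to 0.19), Eif4ebp1 in 8 (up to 0.22) and Polr1b in 6 (up to 0.20).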

How the results depend on the processing

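Of 1234 values of named genes under alternatives, 1089 kept their direction and their side of the threshold, 113 lost a call, 17 gained one and 15 changed sign. The bulk trend kept its count best, with 72 to 76 genes lower when 1 library was left out, 74 with DESeq2, 75 without members in the scaling and 58 with library totals. The count of lower genes in ectoderm-like cells was 1 with library totals, 12 without a filter and 1 to 7 when 1 library was left out, and in XEN-like cells it was 21 without a filter and 1 to 10 when 1 library was left out. With library totals 10 genes were lower in XEN-like cells. The SCRB-seq count was 7 with library totals and 14 to 53 when 1 plate was left out. The cause of these shifts was not tested. The ratio of SCRB-seq shares at 96 h and 0 h was 0.621 in wells with more than 4000 UMIs.

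Signs changed where values were small. With library totals, slopes in bulk became 0.16 for Rpl41, 0.017 for Rps26 and 0.19 for Rps27l, that of Rps27l in SCRB-seq 0.33, and ectoderm-like cells stood at 0.11 for Rps19, 0.11 for Rps27a and 0.17 for Rpsa. Library totals moved the median of all genes to 0.36 in the ectoderm-like comparison (1372 genes higher and 586 lower in place of 878 and 829) and to 0.15 in the XEN-like one. The SCRB-seq slope of Rps27l was 0.045 with DESeq2 and -0.081 to 0.021 when 1 plate was left out. When 1 library was left out, Rpl39l in XEN-like cells was at -0.72 to 0.12, Rps19 there at -0.47 to 0.055, and in ectoderm-like cells Rps27a at -0.40 to 0.010 and Rpsa at -0.33 to 0.049.

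The replicate numbers are not said to mark shared cultures. First replicates of both sorted types deviated together (correlation 0.33 over 8945 genes), and with the replicate number as a block 1 ribosomal protein gene was higher in XEN-like than in ectoderm-like cells, where the fit without pairing called none. Having 2 libraries a group and 1 per time limits all these counts.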
